A study of Homo sapiens with 4 samples.

Results

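The BCL2 family of apoptosis regulators is described here by 10 of its genes: the pro-survival genes BCL2L1, BCL2L2 and MCL1, the effector genes BAX and BAK1, and the BH3-only genes BCL2L11, BID, BAD, BBC3 and PMAIP1. Members were taken by gene symbol, with every probe annotated to them, which gave 21 of the 47323 probes on the array, and they are 10 of 11389 genes measured. Of these 21 probes, 18 passed the filter on dim probes, which asked for detection at 0.05 on 2 or more arrays, and each of the 10 genes kept at least 1. The samples were MDA-LM2 cells, an established line that was derived from MDA-MB-231 human breast cancer cells and colonises the lung, measured on Illumina expression BeadChips. The siSOX4 group (2 samples) had been transfected with siRNA against SOX4 and the siControl group (2 samples) with control siRNA, both with a lipofection reagent, and RNA was taken after 48 h. The comparison asks which transcripts depend on SOX4, a transcription factor of the SoxC group. The design text mentions 2 siRNAs against SOX4 but the sample labels do not say which siRNA a sample received, so a spread between the siSOX4 samples may hold a difference between siRNAs. Separate cultures are not stated for samples of a group and all came from 1 cell line, so the p-values rest on the variation seen among these 4 samples, and part or all of it may be technical.

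Proteins of the BCL2 family decide whether the outer mitochondrial membrane stays intact. BAX and BAK open it and let cytochrome c out, the pro-survival proteins BCL-XL (from BCL2L1), BCL-W (BCL2L2) and MCL1 hold them in check, and BH3-only proteins either neutralise the pro-survival proteins or activate BAX and BAK directly. Transcript level is one layer of control among several, since MCL1 protein turns over quickly, BAD is switched by phosphorylation and BID by cleavage.

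The arrays had median intensities between 76.6 and 82.4 before normalization, and 18609 to 20292 probes were detected per array. The deposited intensities of SOX4 itself were 206 and 193 in siSOX4 samples 1 and 2, against 253 and 239 in siControl samples 1 and 2. Its difference, siSOX4 minus siControl on the log2 scale, was -0.35 ± 0.19 (limma's standard error, n = 2 arrays per group) and did not pass the test (adjusted p = 0.487, limma). All 8 markers of the mesenchymal MDA-MB-231 type, among them VIM and CD44, were detected on every array. Their summed intensities before normalization were 133227 to 133853 in siSOX4 samples and 147450 to 157038 in siControl samples. After normalization their median difference was -0.0068 log2 units, and 0 of the 8 passed the test. The luminal markers ESR1 and PGR and the epithelial cadherin CDH1 were detected on no array, while KRT8, KRT18 and EPCAM were. The immune markers PTPRC and CD3E, the endothelial markers CDH5, VWF and KDR and the fibroblast marker DCN were not detected on any array. Other markers in those lists were on every array (3 of 5 annotated immune, 1 of 4 endothelial and 2 of 6 fibroblast genes).

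In the family as a whole, differences between siSOX4 and siControl cells were small (-0.39 to 0.38 log2 units), and both pro-survival and pro-death members had differences above and below 0. After normalization, BCL2L1 and the BH3-only genes BID and BCL2L11 had signals above both controls in each siSOX4 sample. The effector BAK1 and the BH3-only genes BAD and PMAIP1 had signals below both controls. BCL2L11 was not above background in the controls, so its difference is known only as a bound, given below. None of the 18 probes passed the test: adjusted p ranged from 0.389 to 0.967 (limma, Benjamini-Hochberg over 20118 kept probes). At an adjusted p under 0.05, 0 of the 10 genes and 0% of all 11389 genes were called. An unadjusted p under 0.05 was reached by 0 of the 10, against 14.8% of all genes (1689). Among the 18 probes it was 0 as well, against 13% of all kept probes (6.66% higher and 6.31% lower). With no filter on dim probes, 1 of the 10 genes reached an unadjusted p under 0.05 (limma), beside 2219 of 20046 genes. On leaving out 1 siSOX4 sample, the count rose both among the members and over all genes. At an adjusted p under 0.05 (limma), the fit without siSOX4 sample 2 called 6 of the 18 probes, and it called 21% of all kept probes and 24.7% of all genes. The fit without siSOX4 sample 1 called 1 of the 18, beside 10.2% of all kept probes and 12% of all genes. With either control left out, no kept probe of any gene was called, so those fits do not set the members apart. Where 1 siSOX4 sample was left out, the siSOX4 sample that remains is taken to vary like the controls.

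Where a gene is counted once, its brightest kept probe on average stands for it. By these probes both siSOX4 values were beyond both controls in 1 direction for 6 of 10 members, against a background of 47.7% of all genes. That was 3 members higher (22.7% of all genes) and 3 lower (25.1%). BCL2L11, 1 of the 3 higher, passed the filter only through its siSOX4 arrays, and without it the count was 5 of 9, with 2 higher. Among the 18 probes it was 8, with 4 higher (22.2% of all kept probes) and 4 lower (23.3%), and without BCL2L11 it was 7 of 17. The median difference was -0.024 over the 3 pro-survival genes and -0.11 over the 7 pro-death genes, beside -0.016 over all genes. The pro-death median was the same with BCL2L11 at its bound. Relative to the control mean, siSOX4 sample 1 had medians of 0.15 over the pro-survival and 0.021 over the pro-death genes. In siSOX4 sample 2 these medians were -0.031 and -0.24. Taken without sign, the median difference of the members was 0.21 log2 units, as it was over all genes.

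**Figure D1:**
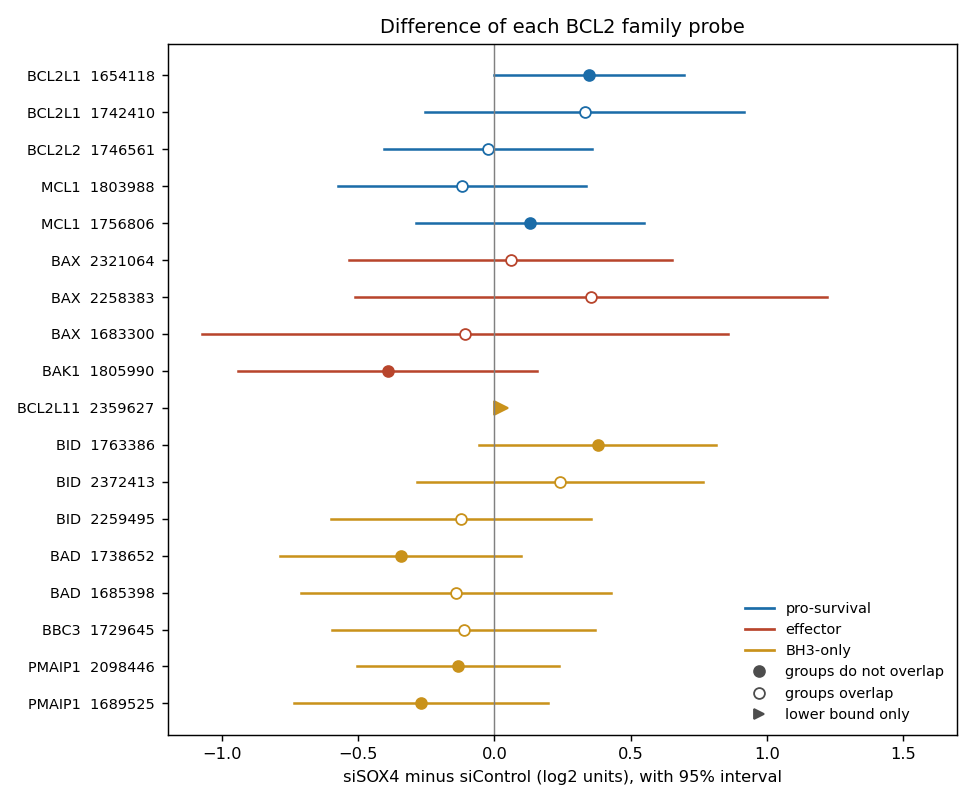
Difference of each of the 18 kept BCL2 family probes, siSOX4 minus siControl, in log2 units with its 95% interval (limma, 2 arrays per group), ordered and coloured by role and labelled with the gene and the probe number. Filled points mark probes whose groups do not overlap (7 of the 17 drawn with an interval), and each of these intervals spans 0. The triangle is the lower bound for BCL2L11, drawn without an interval and with no allowance for noise. Over all kept probes, 45.5% had groups that do not overlap.

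The members with the largest differences in either direction were BAK1, BID, BCL2L1 and BAD. The sequences at the start of these 4 genes are shown because a factor that binds DNA was targeted and because 2 of them were higher and 2 lower. They are RefSeq windows of 300 bases on GRCh38.p14, read 5′ to 3′ along the gene's strand and crossing its annotated start, and they were not measured here. Of several listed starts (2 for BCL2L1, 5 for BID, 2 for BAD), the first with a motif match was taken, or the first listed. The motifs searched were the cores ACAAAG and ACAATG of the element that SOX factors bind, on both strands, so that CTTTGT and CATTGT also count, and matches are in capitals.
BCL2L1, chr20:31723914-31724213, - strand: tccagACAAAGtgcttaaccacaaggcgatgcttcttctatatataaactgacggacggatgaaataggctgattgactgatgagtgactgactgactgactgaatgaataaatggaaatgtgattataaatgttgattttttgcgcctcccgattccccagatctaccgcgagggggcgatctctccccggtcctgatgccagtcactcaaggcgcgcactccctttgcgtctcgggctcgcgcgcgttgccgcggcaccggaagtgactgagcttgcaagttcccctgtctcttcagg
BID, chr22:17773934-17774233, - strand: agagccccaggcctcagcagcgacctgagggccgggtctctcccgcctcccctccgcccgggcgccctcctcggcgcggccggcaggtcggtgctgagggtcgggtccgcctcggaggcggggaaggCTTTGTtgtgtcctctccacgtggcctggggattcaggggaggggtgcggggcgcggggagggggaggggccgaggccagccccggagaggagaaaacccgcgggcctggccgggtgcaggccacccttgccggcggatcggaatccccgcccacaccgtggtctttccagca
BAK1, chr6:33580227-33580526, - strand: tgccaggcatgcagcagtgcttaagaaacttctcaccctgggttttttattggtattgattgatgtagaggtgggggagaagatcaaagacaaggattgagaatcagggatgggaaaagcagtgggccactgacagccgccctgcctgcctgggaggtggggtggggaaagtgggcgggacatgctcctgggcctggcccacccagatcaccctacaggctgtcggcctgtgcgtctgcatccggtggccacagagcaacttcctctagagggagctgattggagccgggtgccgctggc
BAD, chr11:64284655-64284954, - strand: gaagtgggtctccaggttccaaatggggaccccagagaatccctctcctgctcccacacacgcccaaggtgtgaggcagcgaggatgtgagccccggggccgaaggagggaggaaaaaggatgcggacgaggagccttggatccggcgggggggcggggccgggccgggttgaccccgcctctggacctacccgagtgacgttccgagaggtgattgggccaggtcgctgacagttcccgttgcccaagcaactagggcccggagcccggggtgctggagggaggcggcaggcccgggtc
The BCL2L1 window held 1 match and the BID window 1, and the BAK1 and BAD windows held none. Windows with a match were preferred and BAK1 had 1 listed start, so this is not a comparison of higher and lower genes. Of the 14 listed windows of the members, 4 held a match (1 of BCL2L1, 2 overlapping ones of BID and 1 of BBC3), against 24.5% of 35116 windows of all genes. A match is a description of the letters and not a binding site. Listed windows were found by gene symbol for 8 of the 10 members, all but MCL1 and BCL2L2.

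Among the pro-survival genes, BCL2L1 encodes BCL-XL, which binds BAX, BAK and several BH3-only proteins. Its brighter probe (ILMN_1654118) had deposited intensities of 8115 and 6653 in siSOX4 samples 1 and 2, against 6404 and 5840 in siControl samples 1 and 2. Both siSOX4 samples were above both controls, and sample 1 was farther away. After normalization the log2 signals were 13.07 and 12.70 in siSOX4 samples and 12.59 and 12.48 in controls. The difference was 0.35 ± 0.15, or 1.27-fold, with a 95% interval from -0.0030 to 0.70 (adjusted p = 0.389, limma), and 27.7% of all genes had a larger difference in either direction. The fit without siSOX4 sample 2 gave 0.53 (adjusted p = 0.000153, limma) and that without sample 1 gave 0.16 (adjusted p = 0.438). Without 1 control it was 0.29 or 0.40 (adjusted p of 0.963 or more, limma). The dimmer BCL2L1 probe (ILMN_1742410) gave a like difference of 0.33 ± 0.25, made up of 0.66 for siSOX4 sample 1 and 0.0044 for sample 2 relative to the control mean. Of the fits without 1 array, that without sample 2 alone called it (adjusted p = 0.00509, limma).

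MCL1, whose short-lived protein binds BAK, BIM and NOXA, was read by 2 probes that disagreed. The intensities of the brighter (ILMN_1803988) were 1769 and 1283 in siSOX4 samples 1 and 2, against 1756 and 1654 in siControl samples 1 and 2. Only siSOX4 sample 2 stood apart, below the other 3 arrays. The group difference of this probe, -0.12 ± 0.20, averaged 0.15 for siSOX4 sample 1 and -0.39 for sample 2. Without siSOX4 sample 1 its difference was -0.39 (adjusted p = 0.0452, limma), and without sample 2 it was 0.15 (adjusted p = 0.471). The dimmer probe (ILMN_1756806) had 268 and 276 in siSOX4 samples, against 264 and 255 in controls. Its difference was 0.13 ± 0.18, and siSOX4 sample 1 (0.14) and sample 2 (0.12) were both above both controls. Both probes are annotated to the same transcript accession.

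BCL2L2 encodes BCL-W and was the member nearest to no difference with the processing used here. Its 1 probe had intensities of 493 and 512 in siSOX4 samples, against 524 and 546 in siControl samples. After normalization the groups overlapped, with log2 signals of 8.86 and 8.84 in siSOX4 samples and 8.83 and 8.92 in controls. The difference was -0.024 ± 0.17, with a 95% interval from -0.41 to 0.36 (adjusted p = 0.967, limma). Under median scaling in place of quantile normalization it was -0.071, and BAX was nearer to 0 (0.043). By the mean of kept probes MCL1 was nearer (0.0055).

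**Figure D2:**
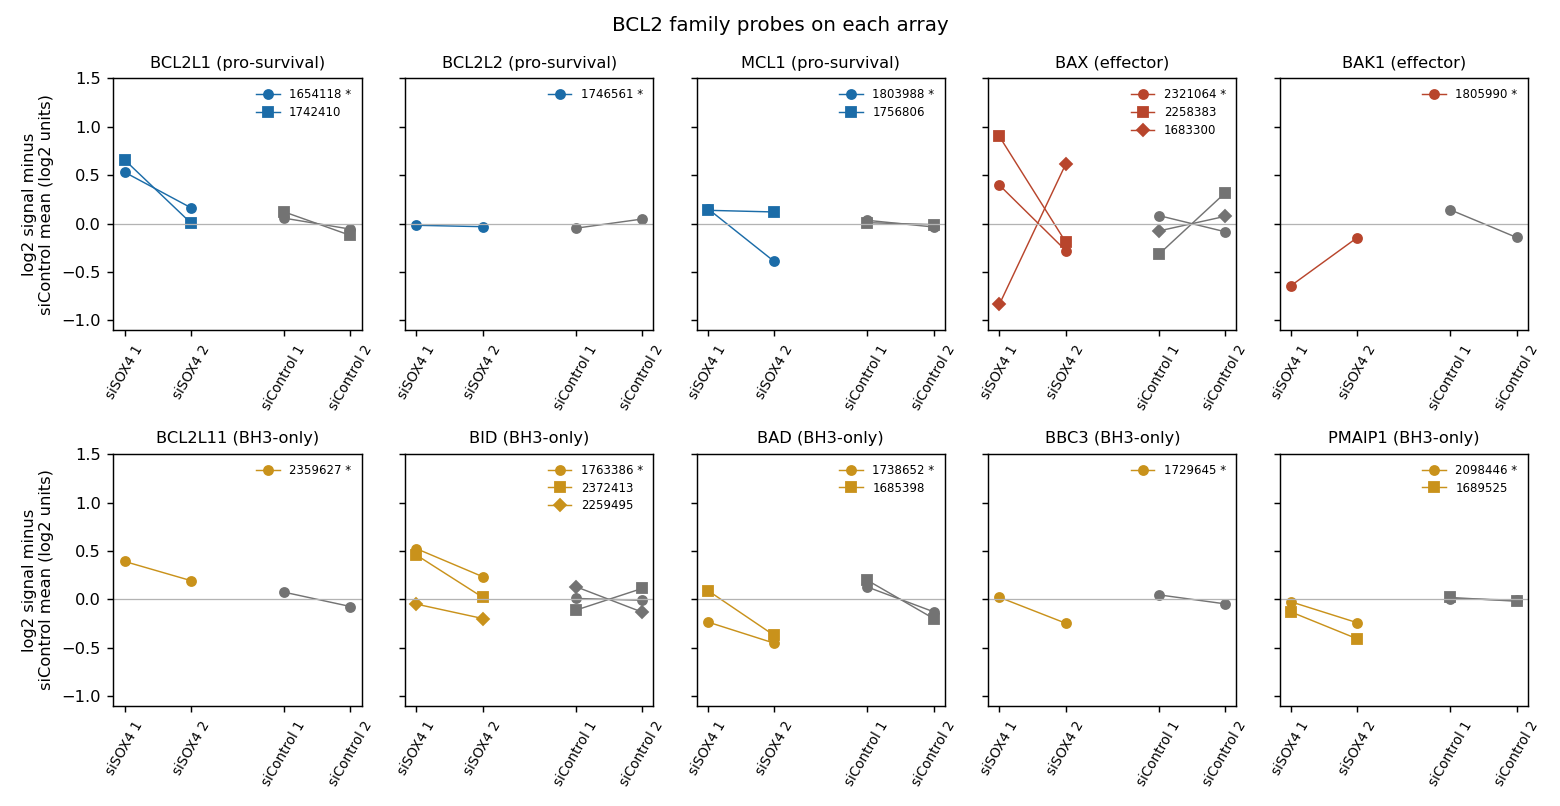
Normalized log2 signal of each kept BCL2 family probe on each array, minus that probe's siControl mean (log2 units), 1 panel per gene. Coloured symbols are siSOX4 samples 1 and 2 and grey symbols siControl samples 1 and 2, lines join arrays of 1 group for the same probe (given by its number), and an asterisk marks the probe that represents the gene. The BAX probes part in siSOX4 sample 1, at 0.90, 0.40 and -0.83.

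Of the effectors, BAK1 is a mitochondrial pore former that MCL1 and BCL-XL restrain. Its 1 probe had intensities of 164 and 214 in siSOX4 samples 1 and 2, against 255 and 215 in siControl samples 1 and 2. Both siSOX4 values were below both controls, but sample 2 was almost level with siControl sample 2. The log2 signals there were 7.3375 and 7.3379. The difference was -0.39 ± 0.24 (adjusted p = 0.532, limma), the largest of the members in either direction, and 22.7% of all genes had a larger one. It was -0.64 in siSOX4 sample 1 and -0.14 in sample 2, and among the fits without 1 array only that without sample 2 called it (adjusted p = 0.0106, limma, against 0.735 without sample 1).

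BAX, the effector that moves from the cytosol to mitochondria, was the member whose probes and arrays agreed least. The brightest probe (ILMN_2321064) had 258 and 185 in siSOX4 samples 1 and 2, against 229 and 207 in siControl samples 1 and 2. The next (ILMN_2258383), annotated to the same transcript accession, had 195 and 118 in siSOX4 samples, against 119 and 151 in controls. The probe ILMN_1683300, annotated to a different BAX transcript, had 99.8 and 177 in siSOX4 samples, against 134 and 139 in controls. The first 2 probes were thus high in siSOX4 sample 1 and ILMN_1683300 was low there. In log2 units siSOX4 sample 1 exceeded sample 2 by 0.68, 1.09 and -1.45. A gap larger than the last was seen in 0.567% of all kept probes, and one larger than the middle value in 2.05%. In the group difference these opposed values left 0.060 ± 0.26, 0.35 ± 0.37 and -0.11 ± 0.42 (adjusted p from 0.737 to 0.949, limma). All 3 BAX probes overlapped between the groups. Without siSOX4 sample 2, ILMN_2258383 (0.90, adjusted p = 0.00122) and ILMN_1683300 (-0.83, adjusted p = 0.00552, limma) were called in opposite directions. Whether the probes tell BAX transcripts apart was not tested.

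Among BH3-only genes, BID links death receptors to mitochondria once it has been cleaved. The brightest of its 3 probes (ILMN_1763386) had 414 and 367 in siSOX4 samples, against 328 and 320 in siControl samples. Both siSOX4 samples were above both controls. The controls were 0.019 log2 units apart and the siSOX4 samples 0.29. The difference was 0.38 ± 0.19, or 1.30-fold, with a 95% interval from -0.055 to 0.81 (adjusted p = 0.447, limma). Without siSOX4 sample 2 it was 0.52 (adjusted p = 0.0179, limma) and without sample 1 it was 0.23 (adjusted p = 0.468). Without 1 control it was 0.37 or 0.39 (adjusted p of 0.963 or more, limma), and by the mean of the 3 BID probes it was 0.17. The second probe (ILMN_2372413) differed by 0.24 ± 0.23 and the dimmest (ILMN_2259495) by -0.12 ± 0.21, both with overlapping groups.

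BAD, which binds BCL-XL when it is not phosphorylated, had a brighter probe (ILMN_1738652) with 349 and 325 in siSOX4 samples, against 470 and 397 in siControl samples. Both siSOX4 values were below both controls. The difference was -0.34 ± 0.19, which is 1.27-fold less signal (adjusted p = 0.497, limma), and sample 2 (-0.45) was farther from the control mean than sample 1 (-0.23). A dimmer probe (ILMN_1685398), detected on 3 of 4 arrays, differed by -0.14 ± 0.25 with overlapping groups, and the other BAD probe was detected on no array.

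PMAIP1 encodes NOXA, a partner of MCL1. Its brighter probe had 908 and 819 in siSOX4 samples, against 989 and 968 in siControl samples, and its dimmer probe 193 and 170, against 216 and 210. Both probes placed both siSOX4 samples below both controls, by -0.13 ± 0.16 and -0.27 ± 0.20 log2 units (adjusted p = 0.776 and 0.616, limma). For the brighter probe, sample 1 was close to the control mean (-0.025) and sample 2 farther from it (-0.24).

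BBC3 encodes PUMA, which binds all pro-survival members. Its 1 probe had 142 and 125 in siSOX4 samples 1 and 2, against 149 and 139 in siControl samples 1 and 2. After normalization siSOX4 sample 1 lay between the controls and sample 2 below them, with a difference of -0.11 ± 0.21 (adjusted p = 0.865, limma).

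BCL2L11 encodes BIM, an activator of BAX and BAK, and was near the detection limit. The 1 kept probe of 3 had 93.1 and 81.5 in siSOX4 samples, against 83.7 and 74.7 in siControl samples. It was detected in both siSOX4 samples (detection p-values 0.0195 and 0.0468) and in neither control (0.134 and 0.244). Its signal in siSOX4 sample 2 was below that of siControl sample 1 as deposited, and above it after normalization. With both controls not above background, the difference is given as a bound. This bound was 1.02-fold more signal in siSOX4 samples, with no allowance for noise. It was set against the higher of the lowest detected signal of each control array and the probe's own signal there. The fitted difference had a 95% interval from -0.16 to 0.75 log2 units (adjusted p = 0.576, limma), so its direction is not settled. The measured log2 means behind the bound were 5.21 in siSOX4 and 4.91 in siControl samples, the second of them at background level. The other 2 BCL2L11 probes were detected on no array.

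The 2 siSOX4 samples differed more from each other than the controls did, both in this family and across the array. The median gap without sign was 0.33 log2 units between siSOX4 samples and 0.15 between controls over the 18 member probes, and 0.26 and 0.16 over all kept probes. Of the 18 member probes, 16 had a higher signal in siSOX4 sample 1 than in sample 2, against 49.0% of all kept probes. These 16 included all 5 pro-survival and all 9 BH3-only probes, while of the 4 effector probes 2 were higher in sample 1. Under median scaling and under the authors' scaling the pro-survival count was 3 of 5 and the BH3-only count 9 of 9. Median scaling in place of quantile normalization gave 14 of 18, against 38.7% of all kept probes, and the authors' scaling gave 14 of 18, against 36.9%. The controls leaned the same way by less. There, 14 of the 18 probes were higher in siControl sample 1 than in sample 2, against 50.1% of all kept probes. The median signed gap of the 18 was 0.081 log2 units between controls, whereas that between siSOX4 samples was 0.27. These signed gaps were smaller under median scaling (0.15 for siSOX4 and 0.053 for siControl) and under the authors' scaling (0.085 and 0.024). Under both of those other scalings 10 of the 18 were higher in siControl sample 1. The share of all kept probes was 44.9% under median scaling and 42.0% under the authors' scaling. The members were chosen with earlier results of these data known, several probes read the same gene, and no test was made. For 3 of the 10 genes (BAX, MCL1 and BBC3) the 2 siSOX4 samples lay on opposite sides of the control mean, as for 34.7% of all genes. Which of the 2 siSOX4 samples received which siRNA cannot be told apart from any other difference between them.

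**Figure D3:**
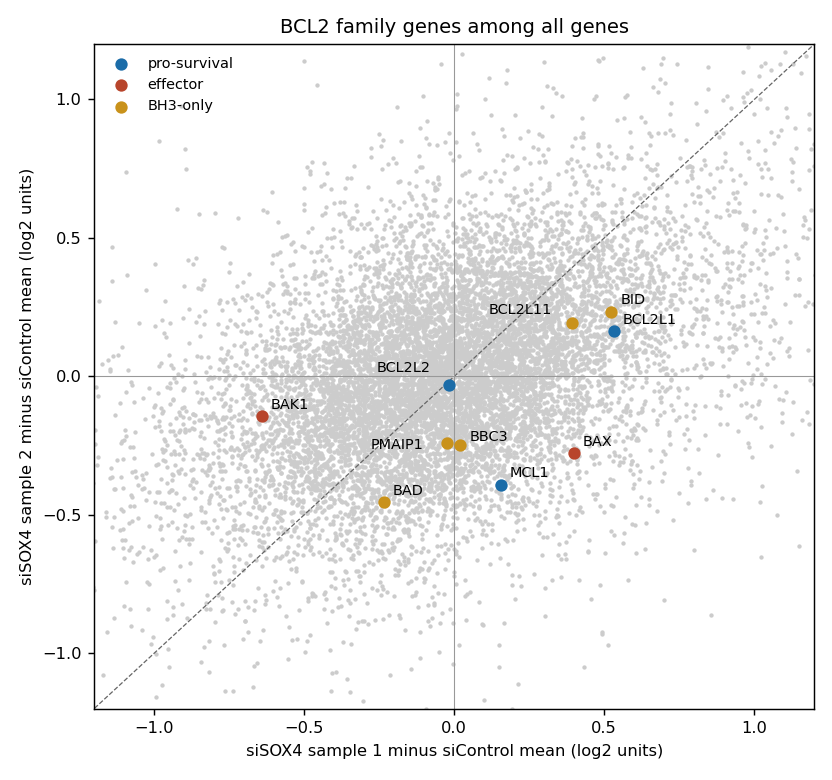
Difference of siSOX4 sample 1 (horizontal) and siSOX4 sample 2 (vertical) from the siControl mean, in log2 units, for the probe representing each gene. Coloured points are the 10 BCL2 family genes by role, grey points all genes (330 of 11389 lie outside the limits of 1.2), and the dashed line marks equal differences. Both axes share the same controls. Of the 10 members, 9 lie below the line, that is, with more signal in sample 1 than in sample 2, and BAK1 lies above it. Over all genes, 47.5% lie below the line. BCL2L11 is placed by its fitted values, with controls not above background.

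The authors' deposited table gives ratios in the other direction, siControl over siSOX4, so that a value above 1 means less signal after siSOX4. In the authors' deposited table the ratio was 0.818 and 0.845 for the brighter and dimmer BCL2L1 probes and 0.820 for the brightest BID probe. It was 1.22 for BAK1 and 1.26 for the brighter BAD probe in the authors' deposited table. For the 2 MCL1 probes the authors' deposited table held 1.11 and 0.939, the same disagreement as above.

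The wider apoptosis pathway was followed in 7 lists of 86 genes, 81 of them annotated on the array and 63 measured. None of the 63 passed (smallest adjusted p = 0.0968, limma). At an unadjusted p under 0.05 there were 7 higher and 4 lower, beside 7.44% and 7.39% of all genes, and their median difference was -0.018. Of the 63, 18 were above and 18 below both controls in both siSOX4 samples, beside 22.7% and 25.1% of all genes. The fit without siSOX4 sample 1 called 9 of the 63 (14.3%, beside 12% of all genes), that without sample 2 called 17 (27%, beside 24.7%), and those without either control called 0 (limma). BCL2L13, TNFRSF21, TNFRSF10B and FBXW7, named below for their large differences, were below 0 in both fits without a siSOX4 sample. Their differences were -0.55, -0.95, -0.57 and -0.89 without sample 1, and -0.92, -1.22, -0.65 and -0.42 without sample 2. Both fits share the same controls. The fits without a control called no gene on the array, so they do not set these genes apart.

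Among the other genes of the BCL2 family (7 of 13 measured, 1 higher and 1 lower at unadjusted p under 0.05, median 0.092), BCL2L13, an outer-membrane protein that serves as a mitophagy receptor, had 464 and 613 in siSOX4 samples, against 884 and 910 in siControl samples. It differed by -0.74 ± 0.18 (adjusted p = 0.194, limma), farther than any of the 10 members. The mitophagy receptor genes BNIP3 and BNIP3L differed by 0.41 ± 0.14 and -0.65 ± 0.44. BCL2, the founding member, was kept and was above both controls in both siSOX4 samples, with a difference of 0.24 ± 0.21 (adjusted p = 0.676, limma).

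Death receptor genes (8 of 15 measured, median -0.18) held the largest difference of all lists. TNFRSF21, or death receptor DR6, had 2516 and 3121 in siSOX4 samples, against 5525 and 6943 in siControl samples. It differed by -1.09 ± 0.17, which is 2.12-fold less signal (adjusted p = 0.0968, limma). Without the filter on dim probes its adjusted p was 0.0210 (limma). TNFRSF10B, a receptor for the death ligand TRAIL, differed by -0.61 ± 0.15 and a second kept probe by -0.74. TNFRSF10D, a decoy receptor for TRAIL, differed the other way (0.69 ± 0.25, and 0.42 with no background correction). At an unadjusted p under 0.05 the list had 1 gene higher and 2 lower.

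Downstream of the mitochondria, apoptosome and executioner genes (8 of 10 measured, median -0.014) had 1 gene with an unadjusted p under 0.05. That was HTRA2, a mitochondrial protease that relieves caspase inhibition, with 0.48 ± 0.21 and a second probe at 0.54. DIABLO, which acts in the same way on inhibitor of apoptosis proteins, had all 3 kept probes below both controls (-0.26, -0.25 and -0.64). CASP9, the initiator caspase of the apoptosome, differed by -0.32 ± 0.23 and a second kept probe by -0.12, both with overlapping groups. The first CASP9 probe was detected on 1 array of each group. Its difference was -0.17 with no background correction and ran from -0.57 to -0.080 on leaving out 1 array. Of the inhibitor of apoptosis genes (4 of 7 measured, median 0.13), the ubiquitin ligase gene BIRC2 differed by 0.50 ± 0.17 and a second probe by 0.25. BIRC5, which also serves in mitosis, differed by 0.30 ± 0.33, and BIRC6 by -0.10 ± 0.21.

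Genes reported to act on the family were mixed. Of the transcription factors (10 of 12 measured, median -0.17), FOXO3, which can induce BCL2L11, differed by 0.49 ± 0.18 and a second probe by 0.44, while FOXO1 (-0.60 ± 0.28) and FOXO4 (-0.40 ± 0.20) differed the other way. FOXO1 was detected on 3 of 4 arrays, and its difference was -0.31 with no background correction and ran from -0.96 to -0.25 on leaving out 1 array. In the list on MCL1 turnover and translation (9 of 9 measured, median -0.081), FBXW7, the substrate receptor of a ubiquitin ligase for MCL1, differed by -0.66 ± 0.21. Its other 2 kept probes gave -0.25 and -0.013. CDC20, an activator of the anaphase-promoting complex, differed by 0.56 ± 0.19 and the RNA helicase gene DDX3X by 0.44 ± 0.15. Among partners and kinases of BAD, BIM and BAK (17 of 20 measured, median 0.086), 0 genes had an unadjusted p under 0.05. The adaptor genes YWHAH and YWHAG, whose proteins hold phosphorylated BAD in the cytosol, differed by 0.94 ± 0.45 and -0.41 ± 0.21. YWHAH had overlapping groups, with 1.76 in siSOX4 sample 1 and 0.11 in sample 2. YWHAG had -0.099 in sample 1 and -0.73 in sample 2, and its second kept probe differed by -0.18 with overlapping groups.

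**Figure D4:**
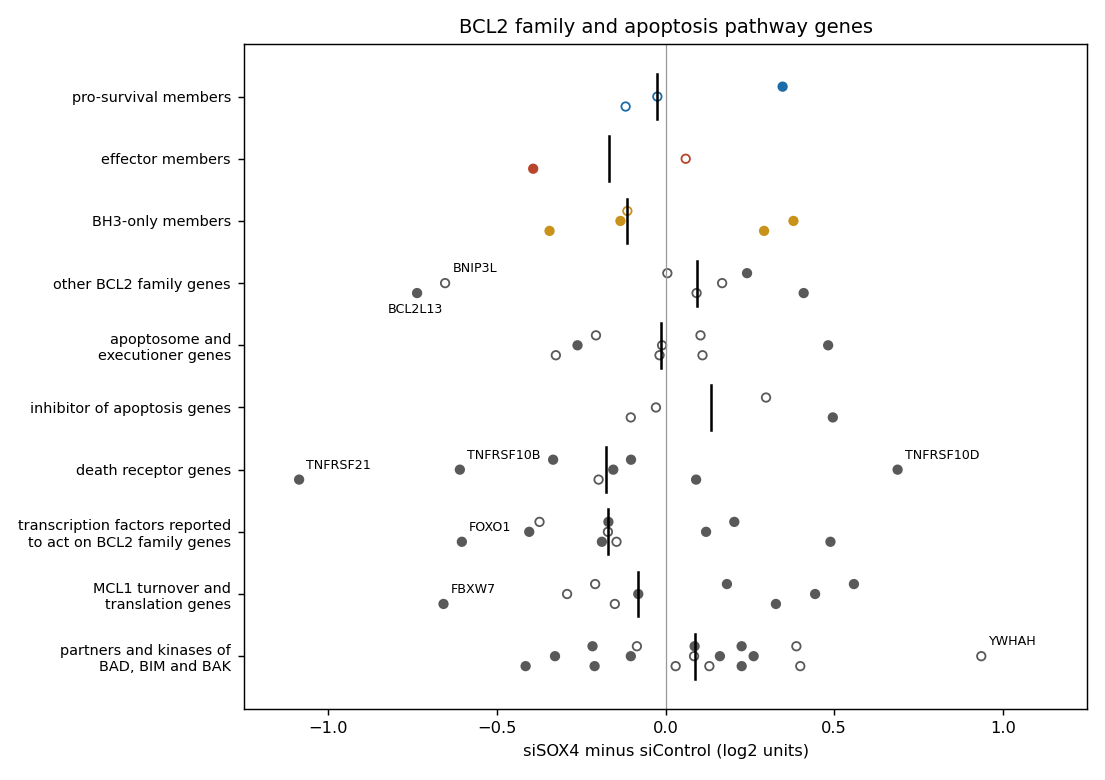
Difference siSOX4 minus siControl (log2 units) of each measured gene in the 3 groups of BCL2 family members and the 7 pathway lists, by the probe that represents the gene. Filled points mark genes whose groups do not overlap, black bars the median of each list, and genes beyond 0.6 in either direction are named. The members lie between -0.39 and 0.38, and TNFRSF21 lies farthest from 0, at -1.09. BCL2L11 is drawn at its fitted value, with controls not above background.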

How the data were processed

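Total RNA of 4 samples was labelled with biotin for a 1-colour Illumina BeadChip, per the labels' protocols. Per the file headers, every array has 1 column of intensity and 1 of detection p-value in the deposited signals. The deposited intensities are linear, with no background subtraction or scaling seen. Each detection p-value column follows the signal column of its array and never rises with that signal. The authors' series matrix holds a ratio, each probe's signal over the median of that array, found by recomputing it, and their fold table a ratio of siControl to siSOX4 means. The scanner's software was not given in the sources used.

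Signals were processed with limma 3.58.1 in R 4.3.3 (neqc with an offset of 16, using the detection p-values, quantile normalization and log2). Probes were kept if detected at 0.05 on 2 or more arrays. Symbols came from the platform annotation (30113 probes with 1 symbol, 8 with several, 17202 not listed and unnamed). The test was siSOX4 minus siControl (lmFit, eBayes with a trend), two-sided, adjusted by Benjamini-Hochberg over 20118 kept probes at 0.05. With 2 arrays per group an exact permutation test cannot pass that threshold, and the number of arrays limits the precision. Members, lists and tests were chosen with earlier results of these data known. Genes named are SOX4, all members with every probe and the 3 of largest difference per list; BCL2 and the markers were named besides. Alternatives were other background corrections, scalings, filters, variance models and gene summaries, a replicate block and leaving out each array.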

Additional observations from a re-analysis of the deposited data

How the results depend on the processing

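With all 4 arrays, the member genes gave 89 values under alternatives, of which 88 kept their direction and none passed (adjusted p from 0.294 to 0.993, limma). The exception was MCL1, at 0.0055 by the mean of its 2 probes, where the probes oppose each other, and the pro-survival median took that value too. BCL2L11 was left out where detection was required on all 4 arrays.

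The count of all genes past the threshold was 0 as reported, 1 with the series matrix values, 77 with no detection filter and 133 with the replicate block, and for pathway genes it was 1 with no detection filter and 1 with the replicate block (TNFRSF21 both times, adjusted p = 0.0210 and 0.0145, limma). The cause was not tested. The replicate block called 0 of 18 member probes and changed no other named call. It put 1 of 10 member genes at an unadjusted p under 0.05 (limma), beside 1834 of all 11389 genes. The samples share only a number: deviations of same-numbered samples correlated at r = 0.11 across kept probes, with 2 pairs.

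Leaving out each array in turn gave 0 to 2815 genes, 0 to 6 member probes and 0 to 17 pathway genes past the threshold. With 1 siSOX4 sample, its spread is assumed to be that of the controls. The pro-survival median ran from -0.072 to 0.15 and the pro-death median from -0.24 to 0.021. Differences that crossed 0 were BCL2L2 (-0.072 to 0.023), MCL1 (-0.39 to 0.15), BAX (-0.28 to 0.40), BBC3 (-0.25 to 0.021), BNIP3L (-1.45 to 0.14), BIRC5 (-0.28 to 0.88), BIRC6 (-0.30 to 0.095) and PIM1 (-0.34 to 1.14). Signal near background limits BCL2L11, CASP9 and FOXO1, whose differences without background correction were 0.16, -0.17 and -0.31.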

Other observations

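In several genes of the wider apoptosis pathway the 2 siSOX4 samples differed more from each other than their mean did from the controls. This is not particular to the pathway. The median gap between siSOX4 samples, without sign, was 0.26 log2 units over all kept probes. The median difference from the controls, without sign, was 0.21 over all genes. The share of all genes with such a gap was not counted. YWHAH, an adaptor gene, had deposited intensities of 6557 and 2243 in siSOX4 samples 1 and 2, against 1815 and 2506 in siControl samples 1 and 2. The kinase gene PIM1, whose protein phosphorylates BAD, had 377 and 175 in siSOX4 samples, against 189 and 238 in controls. BIRC5 had 1083 and 534 in siSOX4 samples, against 688 and 620 in controls. In BNIP3L siSOX4 sample 2 was the array that stood apart, with 797 and 313 in siSOX4 samples 1 and 2, against 708 and 838 in controls. These 4 genes were picked after their values were seen, from those named by the rule, and the cause of the gaps was not tested.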
